A study of Caenorhabditis elegans with 8 samples.

Results

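Whole worms of the Caenorhabditis elegans strains NR350 and TU3401 were compared on 4 of the 8 arrays of the series, 2 arrays per strain. The arrays were picked by their titles, though the comparison itself was chosen with earlier results of these data known. Per the labels, NR350 is sensitive to RNAi by feeding in muscle, and TU3401 in neurons. Each strain had 1 array of worms fed control RNAi bacteria and 1 array of worms fed bacteria against ash-2, a subunit of the complex that methylates histone H3 on lysine 4. Feeding lasted 3 days, ending in young adults, and stocks were kept at 20 °C. The pair of control arrays and the pair of ash-2 arrays each gave 1 difference, NR350 minus TU3401, and the mean of both is the strain difference reported here. The label gives a tissue for each array, but the RNA came from whole animals. No label names separate cultures, so the p-values describe these arrays only. Their spread is how far the 2 pairs of a feature disagree, borrowed mostly from other features, and it may be technical.

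Feeding RNAi in the worm needs the Argonaute protein RDE-1 in each cell that silences a gene and the channel SID-1 to bring double-stranded RNA into that cell. Tissue-specific strains start from a mutant of one of these genes and put it back under a promoter of 1 tissue. As background on these strains, NR350 is an rde-1 mutant with rde-1 restored in muscle by the promoter of hlh-1, the muscle determination gene, and it carries a green fluorescent marker built on sur-5. TU3401 is a sid-1 mutant with sid-1 driven in neurons by the promoter of unc-119, and it carries a red marker driven by the promoter of myo-2, the pharyngeal myosin. Each of them is a single transgenic line, so its background mutation, its transgenes and anything linked to them go with the strain name.

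Both strain markers, sur-5 and sid-1, separated the arrays by strain. The log2 level of sur-5 was 12.04 and 12.05 on the control and ash-2 arrays of NR350, against 8.38 and 8.5 in TU3401. The difference was 3.61 (SE 0.12, adjusted p = 3.99e-26), the largest of all genes with 1 symbol. The log2 level of sid-1 was 7.33 and 7.41 in NR350, against 9.37 and 9.33 in TU3401, a difference of -1.97 (SE 0.17, adjusted p = 2.08e-12). Both genes kept their groups well apart, and the array cannot tell the transgene's transcript from the gene's own. By contrast rde-1 had log2 levels of 5.63 and 5.69 in NR350 and 5.46 and 5.59 in TU3401 (adjusted p = 0.672). unc-119 had 6.27 and 6.31 in NR350, against 6.53 and 6.50 in TU3401 (adjusted p = 0.488). hlh-1 was dim in both strains, at 4.79 and 4.77 in NR350 and 4.87 and 4.85 in TU3401 (adjusted p = 0.783). myo-2 was 0.87 higher in NR350 (SE 0.17, adjusted p = 0.000301), and this call was lost when the spread was estimated from all 8 arrays.

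The RNAi target was not lower on the arrays labelled ash-2. Its log2 level was 8.07 on the ash-2 array and 7.19 on the control array of NR350, and 7.63 on the ash-2 array and 6.94 on the control array of TU3401. The strain difference of ash-2 was 0.35 (SE 0.18, adjusted p = 0.252). The arrays labelled ash-2 are therefore named here by their label.

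**Figure D1:**
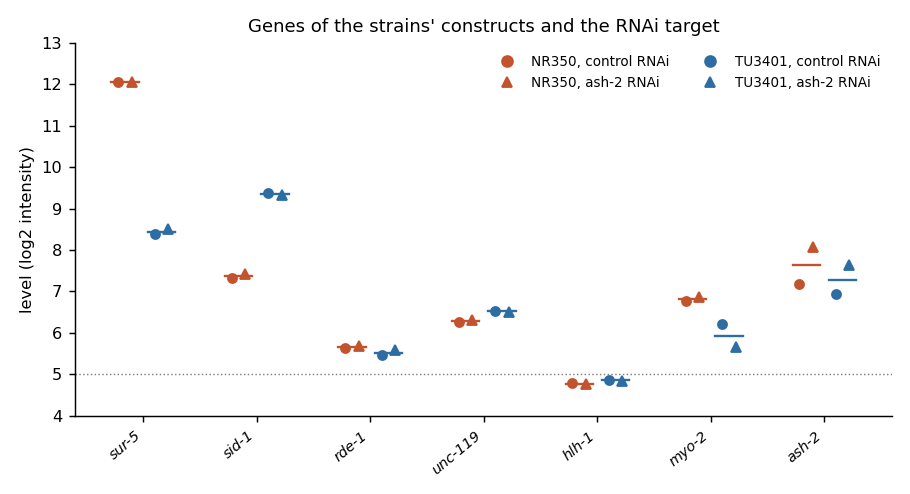
Log2 intensity (y axis) of the 7 genes tied to the strains' constructs or to the RNAi, on the 2 NR350 arrays and the 2 TU3401 arrays. Points are single arrays, circles for control and triangles for ash-2 RNAi, bars are the mean of a strain, and the dotted line marks a log2 level of 5. sur-5 was far higher and sid-1 far lower in NR350, while rde-1, unc-119 and hlh-1 nearly coincided.

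Of 27792 features on each array, 1644 passed as higher in NR350 and 1069 as lower, or 5.92% and 3.85% of all features, at a threshold of 0.05 on the adjusted p. The test was limma on strain and RNAi with the spread borrowed across features, since 4 arrays leave 1 residual degree of freedom. The median total was 43.8 degrees of freedom, so most of each standard error comes from other features. F33E2.5, with differences of 2.24 in the control pair and 0.24 in the ash-2 pair, had a standard error of only 0.20. In the control pair alone 330 features were at least 2-fold higher in NR350 (1.19%) and 122 at least 2-fold lower (0.439%). In the ash-2 pair these numbers were 293 (1.05%) and 123 (0.443%), and 190 features were at least 2-fold higher and 51 at least 2-fold lower in both pairs. In 0 features were the pairs at least 2-fold apart in opposite directions. When the 2 arrays of VP303, the strain with RNAi in the intestine, also informed the spread, which leaves the differences as they are, 1128 of the higher and 511 of the lower calls still passed.

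The number of calls depends on how the spread is estimated. Without a variance trend limma called 0 features in either direction, with 4967 features at an unadjusted p under 0.05, and with strain as the only term it called 759 higher and 279 lower. With 1 array left out and strain as the only term, the count of higher features was 263 without the NR350 control array, 302 without the NR350 ash-2 array, 191 without the TU3401 control array and 297 without the TU3401 ash-2 array. The count of lower features was then 109, 43, 52 and 184 in the same order of arrays. Among the genes named here or in the closing section, calls lost with the VP303 arrays included were those of dpy-17, cnc-8, flp-6, ins-24, mtl-2, mcm-2, air-2, hil-3, hil-4, mrps-10, atp-2, hsp-60, acdh-1, ego-1, hrde-1, rbr-2, spr-5, utx-1, unc-101, Y54G2A.10, F33E2.5, F56A12.5, lfor-1, asp-14 and C04E7.7. Of 224 named genes that passed, 50 had a difference that moved by over 1.5 times with 1 array left out, and such values are given beside the genes below.

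Among 25478 genes with 1 symbol, 1518 were higher in NR350 (5.96%) and 839 were lower (3.29%). Levels near 4.4 on the log2 scale are the floor of these arrays, where differences are compressed. Of the 7933 genes with a mean log2 level above 5, 1222 were higher (15.4%) and 626 lower (7.89%). The protein-coding genes with the largest positive differences after sur-5 included several structural genes of the cuticle and genes of sperm. Y47H10A.5 had log2 levels of 7.48 and 7.78 in NR350, against 4.83 and 4.71 in TU3401, where it lay near the floor. rol-1, a gene whose mutants roll, had 7.76 and 7.43 in NR350, against 5.11 and 4.67 in TU3401. The difference was 2.71 (SE 0.16, adjusted p = 8.66e-17). Y40B1B.7 had 8.66 and 8.60 in NR350, against 5.99 and 6.16 in TU3401. The other 12 genes among the 15 highest were dpy-5, col-13, col-125, col-145, msp-78, abu-7, str-261, ZK180.6, Y59H11AM.1, nspd-1 and nspd-10 with sur-5 itself, and their differences lay between 2.02 and 3.61. str-261, of the chemoreceptor families, stood at 6.35 and 6.40 in NR350 and at the floor in TU3401, at 4.25 and 4.28.

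Fewer protein-coding genes were far lower in NR350: 28 passed with a difference of at least 2-fold, against 221 that were at least 2-fold higher. sysm-1 was the lowest, with log2 levels of 4.75 and 4.74 in NR350, against 7.4 and 7.53 in TU3401. Its difference was -2.72 (SE 0.16, adjusted p = 4.56e-17), and its NR350 levels lie near the floor, where differences are compressed. ctsa-2, a cathepsin A homologue, had 6.13 and 6.29 in NR350, against 8.03 and 8.51 in TU3401. drd-50 had 5.03 and 5.19 in NR350, against 6.96 and 7.37 in TU3401. saeg-2, named as a suppressor of the activated kinase EGL-4, had 6.91 and 6.74 in NR350, against 8.83 and 8.70 in TU3401. These 4 genes and sid-1, picked for the size of their difference, differed by at least 1.94 on the log2 scale. The remaining 10 of the 15 lowest lay between -1.32 and -1.14. They were the collagen gene col-165, the lectin genes clec-190 and clec-97, the cytochrome P450 gene cyp-35C1, and C45H4.14, Y54G2A.36, E02H4.7, Y11D7A.7, C08F11.12 and Y54G2A.10. The last, at -1.14, was at -0.55 without the NR350 ash-2 array and at -1.73 without the NR350 control array.

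**Figure D2:**
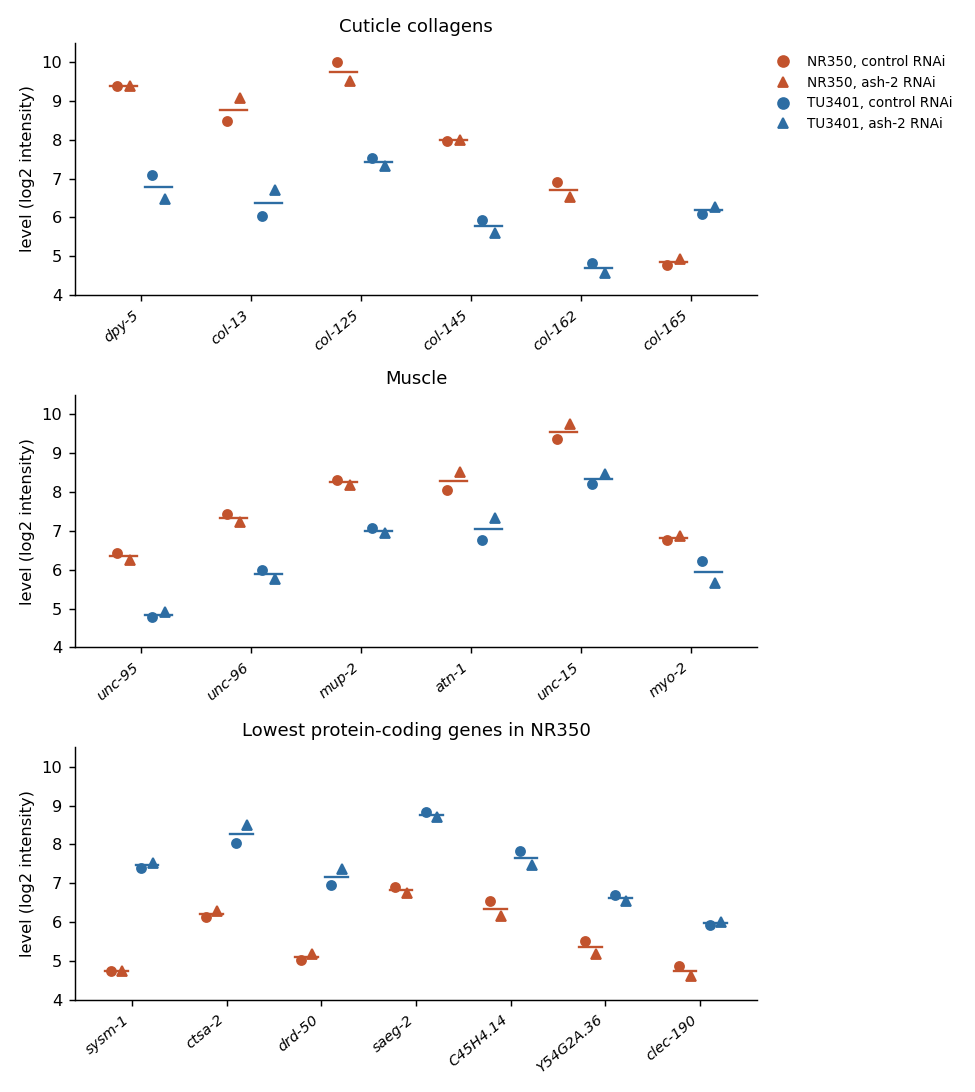
Log2 intensity (y axis) on each array for the leading cuticle collagen genes, the leading muscle genes with myo-2, and 7 of the lowest protein-coding genes, NR350 to the left of TU3401. Points are single arrays, circles for control and triangles for ash-2 RNAi, and bars are the mean of a strain. In every gene shown, both NR350 arrays lie on the same side of both TU3401 arrays. All but myo-2 were picked by the size of their difference, which favours such a gap.

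Genes of the cuticle, the collagen-rich coat that the epidermis rebuilds at each moult, gave the most higher calls of the 37 lists examined. Of 172 cuticle collagen genes, 72 were higher in NR350, 5 were lower and 95 did not pass. Their median difference was 0.16, against -0.01 over all features, and 103 members had a mean level no higher than 5 on the log2 scale. Of the 69 above that level, 51 were higher, where 15.4% of all genes that bright were. dpy-5, a procollagen that shapes the body, had log2 levels of 9.38 and 9.37 in NR350, against 7.08 and 6.48 in TU3401. The difference was 2.59 (SE 0.18, adjusted p = 7.41e-15). col-13 had 8.48 and 9.08 in NR350, against 6.04 and 6.72 in TU3401. col-125 had 9.99 and 9.51 in NR350, against 7.54 and 7.33 in TU3401. The differences of col-13 and col-125 were 2.40 and 2.32. col-145 and col-162 were 2.22 and 2.01 higher. The 5 lower members were led by col-165 at -1.32 and col-158 at -0.53 (-0.33 without the TU3401 control array), and held dpy-17, another body-shape collagen, at -0.49. Collagen genes resemble each other in sequence, so single members are uncertain. The 3 features shared by several collagen genes were higher, by 0.49 to 0.87, but 2 of them nearly coincided with another feature. With the VP303 arrays included, 58 of the higher and 3 of the lower calls passed.

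Hedgehog-related proteins, patched-related proteins and moulting factors work in the same epidermal programme. Of 91 such genes, 23 were higher in NR350 and 0 were lower, with a median difference of 0.06. Of the 31 with a mean log2 level above 5, 19 were higher, or 61.3%, where 15.4% of all genes that bright were. ptr-14, a patched-related gene, had log2 levels of 6.73 and 6.79 in NR350, against 5.27 and 5.44 in TU3401. The ground-like gene grl-16 was 1.33 higher, the moulting gene mlt-8 1.33 and ptr-23 0.99. Among 56 antimicrobial peptide genes of the epidermis, 11 were higher and 0 lower, with a median of 0.01. Of the 11 with a mean log2 level above 5, 7 were higher, or 63.6%. fipr-21 was 1.37 higher, fipr-13 1.04 and cnc-8, a caenacin gene, 0.77. Without the TU3401 ash-2 array cnc-8 was 0.36 higher and without the TU3401 control array 1.18. The abu genes, which encode glutamine- and asparagine-rich secreted proteins, headed the list of the unfolded protein response of the endoplasmic reticulum. Of its 22 genes 10 were higher and 0 lower, with a median of 0.25. Of the 20 with a mean log2 level above 5, 9 were higher, or 45%. abu-7 had 7.77 and 6.96 in NR350, against 5.38 and 5.03 in TU3401. abu-6, its neighbour, was 1.53 higher and abu-11 0.93 higher. xbp-1, the transcription factor of this response, was 0.71 higher (SE 0.15, adjusted p = 0.000568) and the protein disulfide isomerase pdi-6 0.64 higher.

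Muscle genes moved together. Of 44 genes of the sarcomere and its attachments, 28 were higher in NR350 and 0 were lower, or 63.6% against 5.96% of all genes with 1 symbol. Of the 36 with a mean log2 level above 5, 26 were higher, set beside 15.4% of all genes at that level. Their median difference was 0.60 over all 44, and the median was 0.57 in the control pair and 0.64 in the ash-2 pair. unc-95, a protein of the attachment sites, had log2 levels of 6.44 and 6.25 in NR350, against 4.77 and 4.92 in TU3401. unc-96, of the M-line, had 7.43 and 7.22 in NR350, against 6.0 and 5.77 in TU3401. The troponin T gene mup-2 was 1.24 higher, the alpha-actinin gene atn-1 1.23 and the paramyosin gene unc-15 1.23 (SE 0.16, adjusted p = 1.05e-07). Each of these 5 genes had both NR350 arrays above both TU3401 arrays, but they were named for the size of their difference. With the VP303 arrays included, 25 of the 28 calls passed. In RNA from whole animals, more cells or tissue of a type and more RNA per cell cannot be told apart.

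Some genes of the nervous system were higher in NR350. Of 46 neuronal and synaptic genes, 9 were higher and 1 was lower in NR350, with a median of 0.04, and 25 members had a mean level no higher than 5 on the log2 scale. Of the 21 above that level, 8 were higher and 1 was lower, or 38.1% and 4.76%. Among all genes that bright these shares were 15.4% and 7.89%. egl-3, the convertase that cuts neuropeptide precursors, had log2 levels of 7.67 and 7.59 in NR350, against 6.72 and 6.50 in TU3401. egl-21, the carboxypeptidase that trims the products, had 8.94 and 9.12 in NR350, against 8.39 and 8.02 in TU3401. Neuropeptide precursors were also counted. Of 110 FLP and NLP neuropeptide genes, 27 were higher, 1 was lower and 82 did not pass, with a median of 0.13. Of the 53 with a mean log2 level above 5, 25 were higher, or 47.2%. Only 10 of the 27 higher calls passed with the VP303 arrays included. flp-33 was 1.44 higher, nlp-55 1.22 and nlp-18 1.03, and flp-6 was the lower one at -0.72. Without the TU3401 ash-2 array nlp-18 was 0.62 higher. mec-12, a tubulin of touch neurons, was 0.93 higher and the ankyrin gene unc-44 0.78. tbh-1, which makes octopamine, was the lower neuronal gene, with 9.15 and 9.07 in NR350, against 10.05 and 9.95 in TU3401. The difference was -0.89 (SE 0.14, adjusted p = 8.75e-06).

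Of 40 insulin-like peptide genes 7 were higher and 0 lower. Of the 11 with a mean log2 level above 5, 6 were higher, or 54.5%, where 15.4% of all genes that bright were. ins-30 had log2 levels of 8.05 and 7.91 in NR350, against 6.72 and 5.52 in TU3401, a difference of 1.86 (SE 0.19, adjusted p = 5.1e-10). ins-7 was 1.17 higher, ins-28 1.25, ins-29 1.01 and ins-24 0.92. ins-24 was 0.43 higher without the TU3401 ash-2 array and 1.42 higher without the TU3401 control array. Of the 7 genes, 4 lie in the stretches of chromosome I described below, where most neighbouring genes were higher too, and 3 remain without those stretches.

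The gut was described by structural and transport genes, by yolk and by immune effectors. Of 28 intestinal genes 11 were higher in NR350 and 2 lower, with a median of 0.33. Of the 26 with a mean log2 level above 5, 11 were higher and 1 was lower, or 42.3% and 3.85%. Among all genes that bright these shares were 15.4% and 7.89%. ifb-2, an intermediate filament of the intestinal lining, had log2 levels of 9.06 and 8.99 in NR350, against 7.83 and 7.55 in TU3401. ifc-2 was 1.03 higher, the sodium-proton exchanger nhx-2 0.97, the oligopeptide transporter pept-1 0.91 and the acid phosphatase pho-1 0.80. The metallothionein genes mtl-2 and mtl-1 were lower, at -0.65 and -0.40 on the log2 scale, and mtl-2 was at -0.33 without the TU3401 control array. None of the 5 vitellogenin genes, which encode yolk, passed. Their differences ran from -0.35 in vit-1 (adjusted p = 0.102) to 0.06 in vit-6 (adjusted p = 0.758).

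Immune families had members on both sides. Of 247 C-type lectin genes 15 were higher and 13 lower, or 6.07% and 5.26%, where 5.96% and 3.29% of all genes with 1 symbol were. Their median was -0.01. Of the 40 with a mean log2 level above 5, 13 were higher and 8 lower, or 32.5% and 20%. Among all genes that bright these shares were 15.4% and 7.89%. clec-5 had log2 levels of 7.47 and 7.0 in NR350, against 5.29 and 5.25 in TU3401, and clec-63 had 10.60 and 10.59 in NR350, against 9.60 and 9.42 in TU3401. clec-190 went the other way, with 4.88 and 4.61 in NR350, against 5.92 and 6.01 in TU3401. Of 27 other effectors of gut immunity 4 were higher and 4 lower. Of the 18 with a mean log2 level above 5, 4 were higher and 3 lower, or 22.2% and 16.7%. dod-19 was 1.19 higher and irg-7 0.88, while sysm-1, the saposin-like gene spp-4 at -1.07 and irg-5 at -0.87 were lower. Without the NR350 ash-2 array spp-4 was at -0.71. Of 16 lysozyme genes only lys-1 passed, 1.03 higher in NR350. Among 17 aspartyl protease genes, asp-17 was 1.74 higher (SE 0.17, adjusted p = 1.21e-10). Of the 44 genes of the intracellular pathogen response none had a mean log2 level above 5, and sdz-6 alone passed, at -0.64, or -0.33 without the TU3401 control array.

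The leading sperm genes were higher in NR350. Of 58 genes of sperm or sperm formation 11 were higher in NR350 and 1 was lower, and 12 had a mean log2 level above 5. Of these 12, 7 were higher, or 58.3%, where 15.4% of all genes that bright were. Sperm are made in late larvae, before oocytes, in the hermaphrodite. msp-78, a major sperm protein that drives sperm motility, had log2 levels of 9.55 and 9.71 in NR350, against 7.16 and 7.71 in TU3401. nspd-1 had 7.66 and 7.58 in NR350, against 5.29 and 5.83 in TU3401. These were differences of 2.19 and 2.06. spe-44, a transcription factor of sperm formation, was the lower one, at -0.56. Major sperm protein genes are near copies of each other, and most share their features. Of 30 features assigned to several genes with at least 1 major sperm protein gene among them, 23 were higher and 1 was lower, with a median difference of 1.70. Among all features with several symbols 11.5% were higher and 15.2% lower. The median log2 level of the 30 features was 8.37 and 8.51 in NR350, against 6.65 and 6.92 in TU3401. All 4 features shared by msd genes, a family related to the major sperm proteins, were higher too, by 1.63 to 2.2. The nspa and nspb peptide families had 8 of 10 shared features higher and 0 lower, though 4 of the 10 nearly coincided with another feature. The 4 shared features of nspd genes, near the floor on all 4 arrays, had 0 calls and a median of 0.01. Among other families with shared features, all 4 features of pud genes were lower, though 2 of the 4 nearly coincided with another feature. The median difference of the 4 features was -2.33. Their median log2 level was 6.81 and 8.75 in NR350, against 9.80 and 10.37 in TU3401. The median was -1.37 without the NR350 control array and -3.29 without the NR350 ash-2 array.

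Of 40 general germ line genes, all with a mean log2 level above 5, gld-1 alone was higher and nos-2 alone lower. Each was 2.5% of the list, where 15.4% and 7.89% of all genes that bright were higher and lower. gld-1, a repressor of translation in the germ line, had log2 levels of 12.07 and 12.14 in NR350, against 11.48 and 11.88 in TU3401. Its difference of 0.42 was 0.23 without the TU3401 control array. Among 31 oocyte and eggshell genes 6 were lower and 1 was higher, with a median of -0.08. All 31 had a mean log2 level above 5, and 19.4% were lower and 3.23% higher. cey-3, a Y-box protein of the germ line, had 10.35 and 10.44 in NR350, against 11.17 and 11.08 in TU3401, a difference of -0.73 (SE 0.11, adjusted p = 2.37e-06). The eggshell gene cpg-3 was at -0.61 and pie-1, a maternal factor of the germ line fate, at -0.60. With the VP303 arrays included, 3 of the 6 lower calls and 0 of the higher ones passed.

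Genes of dividing cells were lower or not called. Of 57 genes of DNA replication and cell division 7 were lower and 0 higher, with a median of -0.15. With the VP303 arrays included, 3 of the 7 passed. All 57 had a mean log2 level above 5, where 7.89% of all genes that bright were lower and 15.4% higher. The lower share of the 57 was above that background, but most of them did not pass. psf-1, of the GINS complex of the replication fork, had log2 levels of 7.28 and 7.15 in NR350, against 8.19 and 7.87 in TU3401. psf-3, of the same complex, was at -0.62 (-0.38 without the NR350 ash-2 array), the helicase subunit mcm-2 at -0.51 and the Aurora kinase gene air-2 at -0.59. Of 16 histone genes with 1 symbol, 6 were lower and 0 higher, among them the linker histone genes hil-2 at -0.78, hil-3 at -0.62, hil-4 at -0.54 and his-24 at -0.53. The 6 were 50% of the 12 histone genes with a mean log2 level above 5. Core histone genes mostly share features. Of 60 such shared features 29 were lower and 0 higher, with a median of -0.16. Among all features with several symbols 15.2% were lower. Levels of 29 of the 60 nearly coincided with those of another feature, so the 60 are not all separate measurements. The median log2 level of the 60 features was 12.51 and 12.57 in NR350, against 12.79 and 12.77 in TU3401.

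Few ribosomal protein genes passed. Of 66 genes for mitochondrial ribosomal proteins 5 were lower and 0 higher, and the median was -0.22. Only 10 of the 66 had a difference above 0 in the control pair, and 5 in the ash-2 pair. The lower share was 7.94% of the 63 members with a mean log2 level above 5, and it was 7.89% among all genes that bright. mrps-10 was at -0.70, or -0.36 without the TU3401 control array, and mrpl-40 at -0.66. Only 1 of the 5 calls passed with the VP303 arrays included. Of 62 genes for cytosolic ribosomal proteins 2 were higher (3.23%) and 3 lower (4.84%), with a median of -0.09. The median was -0.20 in the control pair and -0.03 in the ash-2 pair. rps-20 was 0.50 higher and lies in the chromosome I stretch described below. Of 12 genes encoded in the mitochondrion 4 were higher, 0 lower and 8 did not pass. Of the 11 with a mean log2 level above 5, 3 were higher, or 27.3%, where 15.4% of all genes that bright were. The median difference of all 12 was 0.61 in the control pair and 0.09 in the ash-2 pair. Their mean log2 level was 8.5 and 8.48 in NR350, against 7.92 and 8.37 in TU3401, so the TU3401 control array stood low. ND5, a subunit of complex I, had log2 levels of 9.55 and 9.75 in NR350, against 7.97 and 8.46 in TU3401. COX1 and COX3, of cytochrome oxidase, were 0.67 and 0.57 higher, and COX1 was 0.42 higher without the TU3401 control array. Of 47 nuclear genes of the respiratory chain 3 were higher and 0 lower, with a median of 0.02. The higher share was 6.82% of the 44 members with a mean log2 level above 5, below the 15.4% of all genes that bright. The 3 genes were sdha-1 at 0.73, cox-4 at 0.70 and atp-2 at 0.29, which ranged from 0.13 to 0.46 with 1 array left out. The mitochondrial chaperone gene hsp-6 was 0.69 higher and hsp-60 0.36 (0.23 without the NR350 ash-2 array). Their list of 16 mitochondrial stress genes had 5 higher and 1 lower. These were 38.5% and 7.69% of the 13 members with a mean log2 level above 5, where 15.4% and 7.89% of all genes that bright were.

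**Figure D3:**
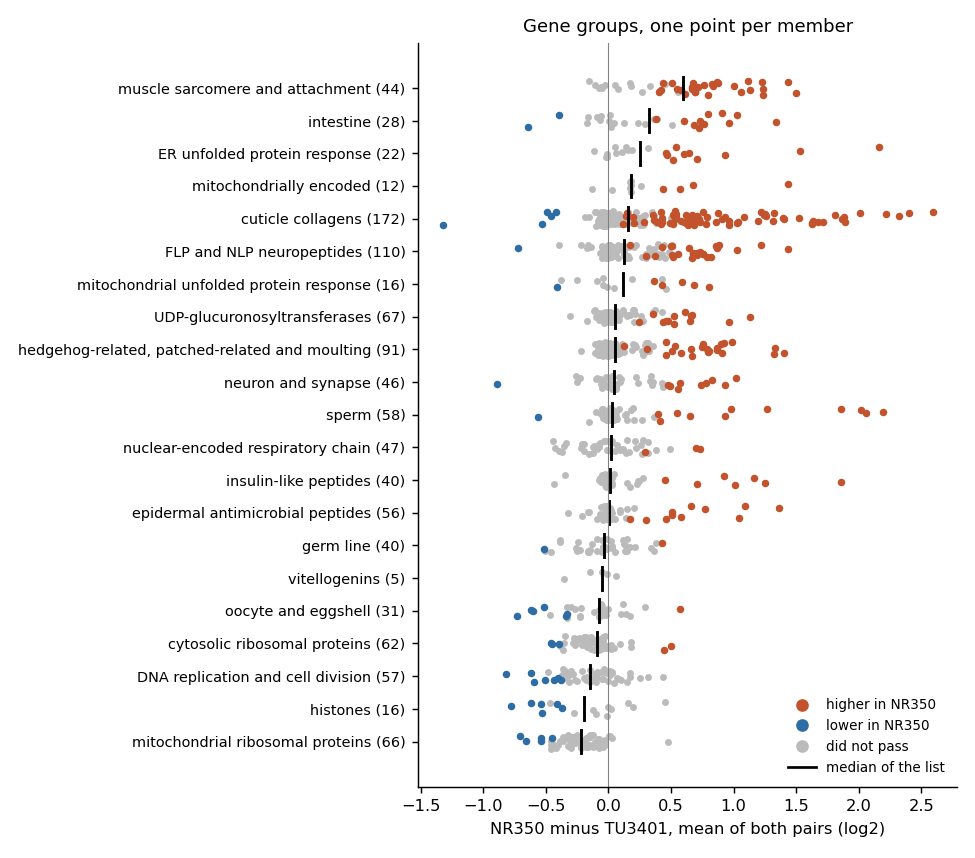
Difference NR350 minus TU3401 (log2, x axis) of each member of 21 of the 37 gene groups, ordered by median, with the number of members in brackets. Each point is a gene, coloured where it passed the test, and vertical bars are medians. Muscle genes lie almost wholly to the right of 0, collagens reach furthest right, and the medians of ribosomal, histone and replication genes lie left of 0 with members on both sides.

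Detoxification, fat and receptor families were counted next, and many of their members were dim. Of 67 UDP-glucuronosyltransferase genes, which attach sugars to foreign compounds, 13 were higher and 0 lower, and 5 of the calls passed with the VP303 arrays included. Of the 18 with a mean log2 level above 5, 8 were higher, or 44.4%, where 15.4% of all genes that bright were. ugt-62 was 1.13 higher and ugt-12 0.96. Of 74 cytochrome P450 genes 4 were higher and 4 lower, led by cyp-33C8 at 1.12 and cyp-35C1 at -1.18. This was 5.41% each way, where 5.96% of all genes with 1 symbol were higher and 3.29% lower. Only 11 of the 74 had a mean log2 level above 5, of which 3 were higher and 4 lower, or 27.3% and 36.4%. Of 46 glutathione S-transferase genes 3 were higher, led by gsto-1 at 1.18, and 1 was lower, or 6.52% and 2.17%. Of the 14 with a mean log2 level above 5, 21.4% were higher and 7.14% lower. Among all genes that bright these shares were 15.4% and 7.89%. Among 93 genes of fat metabolism 7 were higher and 4 lower. Of the 56 with a mean log2 level above 5, 7 were higher and 3 lower, or 12.5% and 5.36%. fat-7, a stearoyl-CoA desaturase, had log2 levels of 5.07 and 4.98 in NR350, against 6.02 and 5.87 in TU3401, while the fatty acid synthase gene fasn-1 was 0.69 higher. acdh-1 was at -0.48, but its control pair differed by -0.16 and its ash-2 pair by -0.80, and it was at 0.04 without the NR350 ash-2 array. Of 271 nuclear hormone receptor genes 18 were higher and 0 lower, or 6.64% higher against 5.96% of all genes with 1 symbol. Most of these receptor genes were dim. Of the 47 with a mean log2 level above 5, 16 were higher, or 34%, where 15.4% of all genes that bright were. nhr-97 had 10.08 and 10.13 in NR350, against 9.06 and 8.75 in TU3401. Of 1297 chemoreceptor genes 5 were higher and 16 lower, or 0.386% and 1.23%, both below the shares among all genes with 1 symbol. Only 5 had a mean log2 level above 5. Of 421 F-box and MATH domain genes 4 were higher and 22 lower, led by fbxc-50 at -0.88. Of the 34 with a mean log2 level above 5, 9 were lower, or 26.5%, where 7.89% of all genes that bright were. Of 82 SCP/TAPS and transthyretin-related genes, small secreted proteins, 8 were higher, led by ttr-33 at 0.92, and 3 lower, led by ttr-42 at -0.75. These were 9.76% and 3.66% of the list, and 25.8% and 9.68% of the 31 members with a mean log2 level above 5. Heat shock and DAF-16 target lists had 1 gene in each direction of 16 and 2 in each direction of 34. These were 6.25% and 5.88% each way, where 5.96% of all genes with 1 symbol were higher and 3.29% lower.

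The RNAi machinery itself was looked at because the strains are built on it. Of 43 such genes 5 were higher in NR350 and 3 lower, sid-1 included, and the median was 0.08. Among the 39 with a mean log2 level above 5 these were 12.8% and 7.69%, no more than the 15.4% and 7.89% of all genes that bright. alg-1, an Argonaute protein of the microRNA pathway, had log2 levels of 8.17 and 8.08 in NR350, against 7.28 and 7.34 in TU3401. rsd-3, needed for the spread of RNAi, was 0.78 higher and the Argonaute gene ppw-2 0.61. ego-1, which makes secondary small RNAs, was 0.50 higher and the nuclear Argonaute gene hrde-1 0.41. rde-4, which binds double-stranded RNA beside Dicer, had 6.86 and 6.88 in NR350, against 7.53 and 7.51 in TU3401, a difference of -0.65 (SE 0.17, adjusted p = 0.00894). rde-11, which helps secondary small RNAs to accumulate, was at -0.78. In a list of 15 genes drawn up for histone H3 lysine 4 methylation and its removal, rbr-2 and spr-5 were higher, by 0.58 and 0.52. utx-1, also listed but encoding a demethylase of a different lysine of histone H3, was lower, at -0.48. All 3 of these calls were lost with the VP303 arrays included. Of the 14 listed genes with a mean log2 level above 5, 14.3% were higher and 7.14% lower. These shares were no more than the 15.4% and 7.89% of all genes that bright, and the list's median was -0.0008. Without the TU3401 control array rbr-2 was at 0.33 and utx-1 at -0.76, and without the TU3401 ash-2 array utx-1 was at -0.20.

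Neighbouring genes on chromosome I differed together. In the order of genes in the RefSeq annotation, counting genes with a mean log2 level above 5, the longest run with a running median above 0.5 over 15 genes spanned 91 genes, eif-3.J to exc-4. In it 68 genes were higher in NR350 and 0 were lower, and 87 had a difference above 0. The median difference was 0.83, with 0.79 in the control pair and 0.76 in the ash-2 pair, and the running median reached 1.13. Of 23 genes taken on either side, at least 8 places beyond the ends, 3 before and 1 after the run were higher, with medians of -0.03 and -0.06. Against VP303, the median of these 91 genes was 0.50 in NR350 and -0.11 in TU3401. Y40B1B.7 of the highest genes lies just before the run with its neighbours W05H12.1, 1.02 higher, and slc-25A46, 0.84 higher. A second run on the same chromosome, unc-101 to F33E2.5, held 11 genes with a median of 0.55, of which 7 were higher and 0 lower. These runs were found by looking at the values, so no test is given for them. DNA copy number was not measured, and its part in the runs was not tested. Without every such run, on chromosomes I and X, 1557 features were higher, or 5.63% of those left.

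Chromosome X differed from the autosomes along its length. Of 1070 placed X-linked genes with a mean log2 level above 5, 311 were higher in NR350, or 29.1%, and 65 were lower, or 6.07%. On the autosomes 9.53% to 15.9% were higher. The median difference of X-linked genes was 0.20, with 0.22 in the control pair and 0.16 in the ash-2 pair, and the autosomal medians lay between -0.03 and 0.04. X-linked genes are known to be mostly silent in the worm's germ line, so their transcripts come chiefly from body tissue. Of the 28 muscle genes that were higher, 10 are X-linked, as are 13 of all 44 in that list. Of the 72 higher collagen genes 8 are X-linked, as are 30 of all 172. The share of germ line RNA in each sample was not measured, and its part was not tested.

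**Figure D4:**
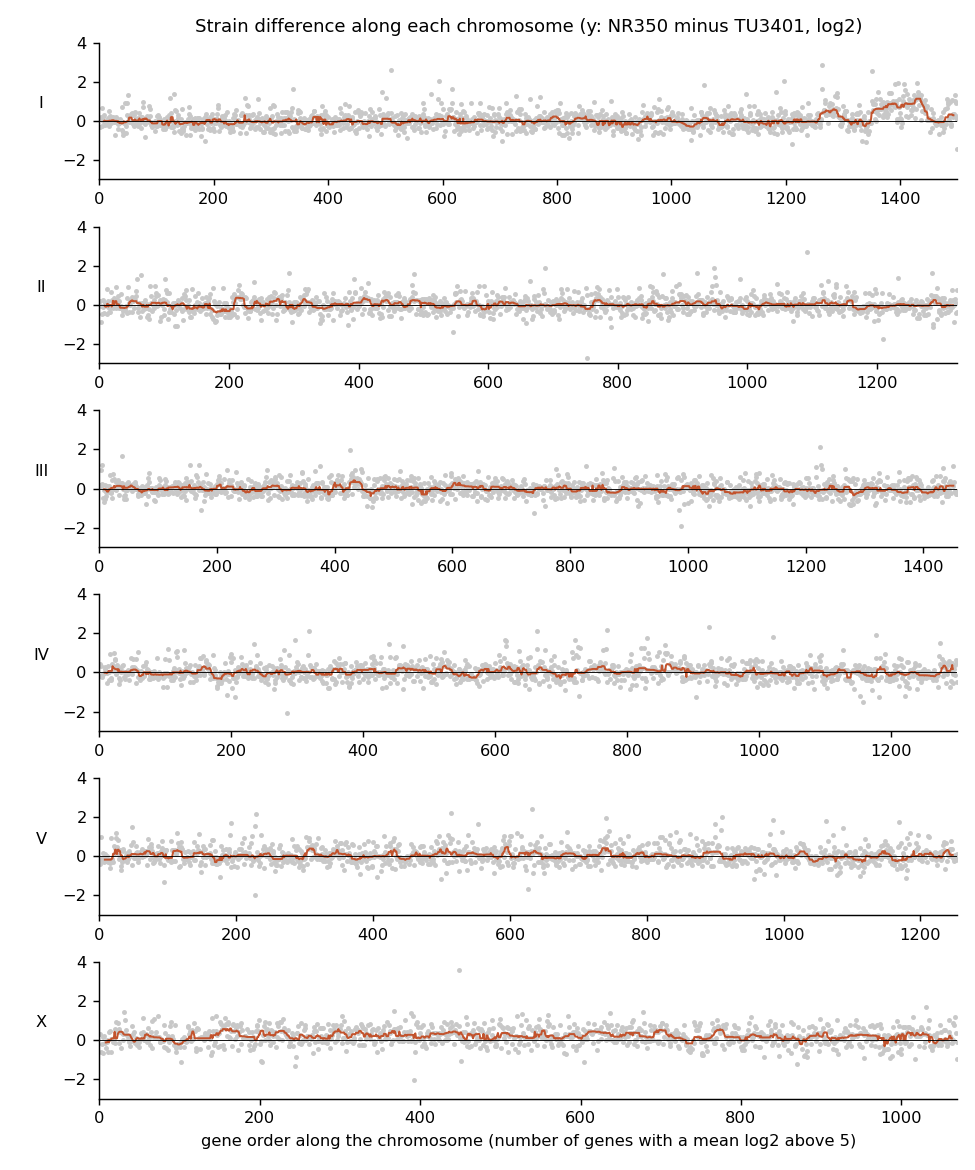
Difference NR350 minus TU3401 (log2, y axis) of each gene with a mean log2 level above 5, in gene order along each chromosome (x axis). Grey points are genes and the line is the running median over 15 genes. The line climbs to 1.13 near the right end of chromosome I and stays slightly above 0 along X.

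The neighbours of the 15 highest and 15 lowest protein-coding genes were also read. Of 180 genes within 3 places of them, 19 were higher, or 10.6%, and 5 lower, or 2.78%, where 5.96% and 3.29% of all genes with 1 symbol were. M01G12.9, 3 places from Y47H10A.5 among the genes measured, was 1.62 higher (adjusted p = 4.26e-10). W09D6.5, 3 places from str-261, was 1.18 higher. catp-7, next to Y59H11AM.1, was 1.2 higher, and ZK180.5, 2 places from ZK180.6, was 0.92 higher. T23G5.9, 2 places from saeg-2, was at -0.87 like its neighbour. nhr-97 lies 2 places from msp-78. Not all neighbours matched: Y11D7A.3, 3 places from the lower gene Y11D7A.7, was 1.32 higher, and apc-10, 2 places from col-13, was at -0.84.

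Few noncoding genes passed, and most noncoding genes were dim. Of 5972 genes annotated as noncoding RNA, 18 were higher and 145 lower, or 0.301% and 2.43%, both below the shares among all genes with 1 symbol. Of the 235 with a mean log2 level above 5, 11 were higher and 65 lower, or 4.68% and 27.7%, where 15.4% and 7.89% of all genes that bright were. With the VP303 arrays included, 6 of the 18 and 72 of the 145 passed. The pseudogene sss-2, of a sperm gene family, had log2 levels of 6.93 and 6.67 in NR350, against 4.98 and 4.90 in TU3401. The noncoding RNA C30E1.9 had 8.92 and 9.74 in NR350, against 7.51 and 7.75 in TU3401. The pseudogene ZK546.3 was 1.61 higher, C12D8.24 1.21 and W03D2.6 1.13. Without the NR350 ash-2 array C12D8.24 was 0.69 higher, and W03D2.6 was 0.73 higher without the NR350 control array and 0.69 without the TU3401 ash-2 array. ZK131.14 was the lowest, with 7.82 and 8.09 in NR350, against 9.63 and 9.75 in TU3401. K07C5.17 was at -1.66, F52D4.1 at -1.51, F31C3.15 at -1.46 and mrpr-1 at -1.40. Levels of 253 features nearly coincided with those of another feature, so these are not separate measurements. Of the 253, 106 were lower and 13 higher, or 41.9% and 5.14%, where 3.85% and 5.92% of all features were. Of the 230 with a mean log2 level above 5, 46.1% were lower and 5.65% higher. Among all features that bright these shares were 9.36% and 15.3%.

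The strain difference was set side by side in both RNAi treatments. Over 8567 features with a mean log2 level above 5, the differences of the control pair and the ash-2 pair had a Pearson correlation of 0.77. It is given as a description, since features share their arrays. With 1 array per group, a change of the strain difference with ash-2 RNAi has no test. F33E2.5 changed most, with a log2 level of 6.88 on the control array of NR350 and 4.79 on its ash-2 array, against 4.64 and 4.55 in TU3401. F56A12.5 had 9.71 on the control array and 8.32 on the ash-2 array of NR350, against 9.75 and 10.23 in TU3401. lfor-1 had 6.57 and 7.44 in NR350, against 8.22 and 7.76 in TU3401. The NR350 control array stood apart in F33E2.5 and lfor-1, and the NR350 ash-2 array in F56A12.5. Without the NR350 control array the differences of F33E2.5 and lfor-1 were 0.20 and -0.56, and without the NR350 ash-2 array that of F56A12.5 was -0.28.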

How the data were processed

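The arrays were of the type Affymetrix C. elegans Gene 1.0 ST, hybridised with RNA from whole worms. Per the series' design text, GeneChip Command Console 2.0 and GeneSpring GX 11.0.2 were used; the submitters' processing notes name RMA. The deposited values are linear intensity, already normalized by the authors, with lowest values near 18, and log2 was taken with nothing added. No array was left out of the deposited table, and 0 columns were unused. Of 27792 features, 25546 had exactly 1 symbol in the platform annotation, 646 several and 1600 none, and 25436 of the 25478 genes were found in the RefSeq table, used for names, biotypes and gene order. For a gene with several features the brightest was taken. Array medians lay between 21.3 and 21.6 on the 4 arrays, and the number of arrays limits the precision.

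NR350 and TU3401 were compared with limma 3.58.1 in R 4.3.3 (lmFit and eBayes with a variance trend, strain and RNAi terms, two-sided), adjusting p by Benjamini-Hochberg across the 27792 features (threshold 0.05). An exact permutation test of 2 arrays against 2 cannot go below 0.333. On simulated data this fit recovered the changes made but called more unchanged features than its threshold allows, so calls were also set against a fit with the 2 VP303 arrays added, whose use was chosen after seeing the data. The comparison, the gene lists and the genes named were chosen with earlier results of these data known. The genes named were the strain and target genes, the 15 highest and 15 lowest protein-coding and 5 highest and 5 lowest noncoding genes that passed in the same direction in both pairs, up to 5 members per direction of each of the 37 lists, and the 5 highest and 5 lowest by change between the pairs. The neighbours of those genes were named after their values were seen. Of 586 genes listed singly, 42 were not matched. Alternatives were other normalizations, a filter on dim features, an offset, other variance priors, other sets of arrays or features, no RNAi term and leaving out each array.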

Additional observations from a re-analysis of the deposited data

Results flagged for a closer look

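For 8 of the genes named here the strain difference pointed one way in the pair of control arrays and the other way in the pair of ash-2 arrays. With 1 array per group these changes were not tested. The change below is the ash-2 pair's difference minus the control pair's, each NR350 minus TU3401 on the log2 scale. T02H6.7 had 0.48 in the ash-2 pair and -1.13 in the control pair, a change of 1.61. In the same order, tnc-2, a troponin C gene of the pharynx, had 1.29 and -0.17, a change of 1.47, and it was the TU3401 ash-2 array that stood low at 6.11 against 7.25 to 7.43 on the other 3. M04D5.4 had 1.04 and -0.29, a change of 1.33, again with a low TU3401 ash-2 array. asp-14 had 0.02 and -1.26, a change of 1.28. F01D5.14 had -0.93 in the ash-2 pair and 0.63 in the control pair, a change of -1.56. K03F8.3 had -1.17 and 0.35, a change of -1.52, and C04E7.7 had -1.34 and 0.17, a change of -1.52. vit-6 had -0.01 and 0.14, a change of -0.15. The standard error of its strain difference was 0.09, but that belongs to the mean of both pairs. A change between the pairs has a larger standard error. Among all genes with 1 symbol, 10 that passed the test had pairs of opposite sign.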

How the results depend on the processing

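The strain comparison already pairs the arrays by RNAi treatment, and no paired analysis by replicate was possible because each group had 1 array. Counts of higher and lower features stayed within 1.5 times the 1644 and 1069 reported under quantile normalization, median centring, a filter on dim features, an offset of 16, a robust prior, features with 1 symbol, near-identical features counted once, a threshold of 0.1 and removal of the runs of neighbouring genes. Without a variance trend the counts were 0 and 0, and with strain as the only term 759 and 279. With all 8 arrays 616 features were lower, and with the 6 arrays without N2 512 were, of which 511 had also passed with 4 arrays; the higher counts stayed within 1.5 times. Leaving out 1 array gave 191 to 302 higher and 43 to 184 lower features, with fewer arrays and no RNAi term by construction.

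Counts at 2-fold within a pair rose at 1.5-fold, by construction, to 1201 higher and 596 lower in the control pair, 951 and 592 in the ash-2 pair and 669 and 261 in both. With the offset of 16 subtracted they were 937 and 400, 768 and 380, and 445 and 120. Among features with 1 symbol, 81 were lower in the control pair, 62 in the ash-2 pair and 24 in both, and with near-identical features counted once 32 were lower in both. Of the 224 named genes that passed, 152 still passed with 6 arrays, 121 with strain as the only term and 0 without a variance trend. Between 61 and 73 did with 1 array left out. With 1 array left out, 10 of the 235 named genes changed sign. The difference of asp-14 ran from -2.14 to 0.90, acdh-1 from -0.999 to 0.043, ash-2 from -0.10 to 0.79, vit-6 from -0.084 to 0.21, T02H6.7 from -0.88 to 0.24, F01D5.14 from -0.76 to 0.47, K03F8.3 from -0.99 to 0.17, C04E7.7 from -1.44 to 0.27, tnc-2 from -0.10 to 1.22 and M04D5.4 from -0.27 to 1.02. The cause of these changes was not tested. Levels near the floor limit what can be seen for dim genes.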
